A study of Mus musculus with 6 samples.

Results

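MIN6 is a mouse insulin-secreting line used as a model of pancreatic beta cells, and MafA is a transcription factor of mature beta cells that activates insulin genes. Described here are the peaks of MafA and of the histone mark H3K4me3 at 8 genes for transcription factors of pancreas progenitors: Hnf4a, Hnf4g, Onecut1, Gata4, Gata6, Sox9, Ptf1a and Hes1. Every peak lying in 1 of these genes or within 50 kb of it was taken, at RefSeq positions on GRCm38, which gave 74 of the 108684 peaks deposited and 8 of 21887 protein-coding genes. The series held 6 libraries of unmodified MIN6 cells, each from 500000 cells permeabilised with 0.01% digitonin. There were 2 with an antibody to endogenous MafA, 2 with an antibody to H3K4me3 as positive control, and 2 with IgG as negative control. All came from this single line, and nothing in the labels says that replicates were separate cultures. Peak lists of the 4 MafA and H3K4me3 libraries were used, and IgG files were not used here. In CUT&RUN, an antibody leads a nuclease to its target in permeabilised cells, and the DNA cut loose there is sequenced.

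These factors act in the order in which the pancreas forms. GATA4 and GATA6 are zinc finger proteins of the early pancreatic bud, SOX9 and PTF1A are kept in the progenitor pool and later in duct and acinar cells respectively, and HES1 is the repressor through which NOTCH signalling holds progenitors back from endocrine fate. ONECUT1, also called HNF-6, acts upstream of the endocrine factor Neurog3 in progenitors, while HNF4A and HNF4G are nuclear receptors that adult beta cells keep. H3K4me3 marks the starts of genes that are active or poised.

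The sequences around annotated starts are shown first, because the H3K4me3 lists separated them. RefSeq windows (GRCm38.p6) of 300 bases, 250 before the start and 50 from it, were at hand for 3 of the 8 genes, with 4 starts in all. Hnf4a has an upstream and a downstream start 40.3 kb apart, known as P2 and P1. P2 is the main start in beta cells and P1 the main start in liver. Capitals in the upstream Hnf4a window mark ATCAAT, the core of sites of ONECUT factors, and AGATAA, a core of sites of GATA factors. The downstream Hnf4a window has neither and is printed without capitals. In the Ptf1a and Onecut1 windows they mark CG dinucleotides. All windows lie on the plus strand.
Hnf4a upstream start, chr2:163506607-163506906: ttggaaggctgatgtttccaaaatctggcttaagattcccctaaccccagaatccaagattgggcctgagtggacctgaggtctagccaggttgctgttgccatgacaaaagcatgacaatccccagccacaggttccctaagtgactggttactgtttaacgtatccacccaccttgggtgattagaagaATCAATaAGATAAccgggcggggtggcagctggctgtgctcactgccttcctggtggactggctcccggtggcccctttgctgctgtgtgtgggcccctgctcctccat
Hnf4a downstream start, chr2:163546905-163547204: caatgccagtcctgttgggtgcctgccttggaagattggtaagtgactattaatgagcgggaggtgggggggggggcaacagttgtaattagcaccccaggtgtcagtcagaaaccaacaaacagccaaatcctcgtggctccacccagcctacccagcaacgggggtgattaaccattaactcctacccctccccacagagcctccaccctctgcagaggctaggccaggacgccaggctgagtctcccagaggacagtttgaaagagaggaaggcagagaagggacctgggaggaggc
Ptf1a start, chr2:19445413-19445712: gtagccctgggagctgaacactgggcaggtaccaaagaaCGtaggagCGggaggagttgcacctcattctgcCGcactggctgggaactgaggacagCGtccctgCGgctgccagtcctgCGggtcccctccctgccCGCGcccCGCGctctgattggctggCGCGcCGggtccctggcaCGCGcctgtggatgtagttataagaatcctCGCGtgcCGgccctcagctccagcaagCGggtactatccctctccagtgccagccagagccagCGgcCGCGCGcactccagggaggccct
Onecut1 start, chr9:74861671-74861970: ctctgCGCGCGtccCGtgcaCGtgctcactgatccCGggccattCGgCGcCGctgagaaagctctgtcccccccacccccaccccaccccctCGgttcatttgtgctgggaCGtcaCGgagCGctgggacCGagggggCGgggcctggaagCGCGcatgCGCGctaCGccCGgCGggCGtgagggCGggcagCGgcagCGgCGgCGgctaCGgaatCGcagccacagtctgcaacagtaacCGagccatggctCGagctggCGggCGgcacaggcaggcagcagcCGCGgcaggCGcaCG

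H3K4me3 lay at the upstream Hnf4a start and not at the downstream one. In the upstream window ATCAAT stood at bases -59 to -54 from the start and AGATAA at -52 to -47. Both strands were searched, and these matches did not overlap each other. Both strings were chosen for the search after the windows were read, so the matches are a description. ATCAAT occurs in 7.54% of 32851 RefSeq start windows of this length and AGATAA in 11.2%. Among windows that overlap an H3K4me3 region the shares were 3.52% and 5.14%, and among the others 10.3% and 15.4%. The MAF core TGCTGA (19.5% of windows) and the AP-1 site TGANTCA (7.81%) had no match in the 4 windows, which says only that those letters are not there. A match is a string of letters and was not measured as a bound site.

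Of the 4 starts, 2 went against the usual relation of H3K4me3 to CG content, 1 in each direction. Over all start windows, 2.34% of those with 0 to 3 CG dinucleotides and 94.2% of those with 36 to 67 overlapped an H3K4me3 region, meaning a stretch called in both replicates. Both Hnf4a windows held 4 CG dinucleotides, a number at which 6.82% of windows were marked, and the upstream one was. The Ptf1a window held 23, a number at which 90.6% of windows were marked, and it was not. Its nearest H3K4me3 region began 73.5 kb away. The Onecut1 window held 38 and was marked. Windows of 1 gene can overlap each other, so these shares are a description.

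**Figure D1:**
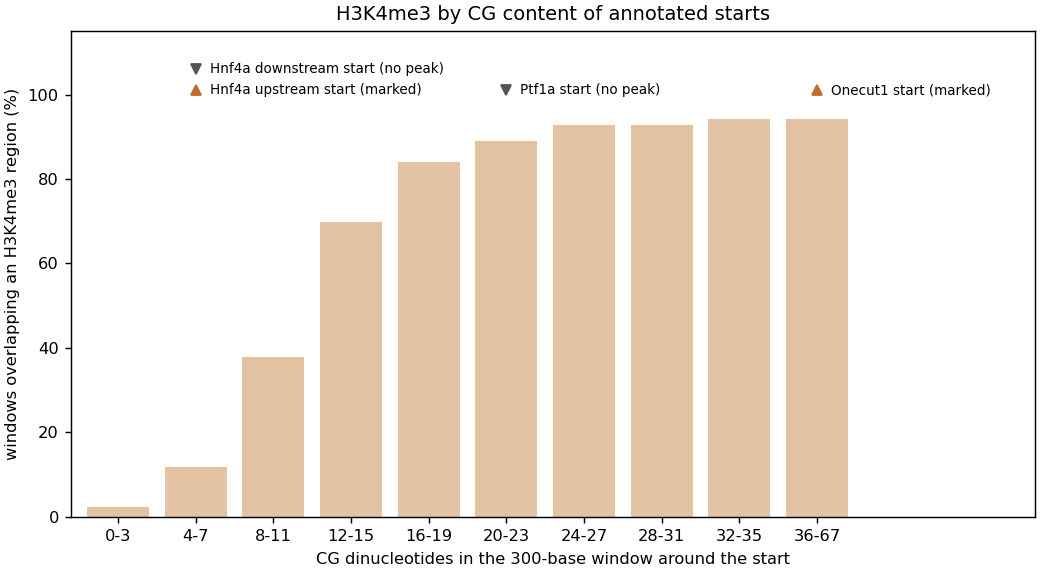
Share of RefSeq start windows (y axis, %) that overlap an H3K4me3 region, by number of CG dinucleotides in the 300-base window (x axis, bins). Triangles place the 4 windows of member genes: the marked Hnf4a upstream start sits in a bin of which 11.9% was marked, and the unmarked Ptf1a start in one of which 89.1% was.

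Hnf4a (chromosome 2, 163506811 to 163572907) carried the strongest H3K4me3 region of the group at a gene end. It ran from 163506362 to 163508150, with a fold enrichment of 26.3 in replicate 1 and 22.9 in replicate 2. Fold enrichment is the authors' ratio of the signal to a modelled background, taken at the peak's highest point. These summits held 822 and 320 fragments and stood 227 and 233 bases past the upstream start, on the gene side. In mean fold enrichment the region ranked at percentile 87.7 of the 15573 H3K4me3 regions. It overlapped the long non-coding gene Hnf4aos as well. The region ended 39.0 kb short of the downstream start, and neither H3K4me3 list had a peak there.

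The strongest MafA region at any of the 8 genes lay 24.9 kb (replicate 1) and 25.2 kb (replicate 2) before Hnf4a, between Fitm2 and R3hdml, from 163481219 to 163482308. Fold enrichment was 8.95 in replicate 1, from 121 fragments, and 10.9 in replicate 2, from 233 fragments, a mean of 9.94 ± 1.40 (SD, n = 2). The replicate summits were 278 bp apart, more than the median of 83.5 bp over the 12 MafA regions of the 8 genes, and the region stood at percentile 84.7 of all 25894 MafA regions. The nearest protein-coding gene was Fitm2, 8590 bp away, so proximity alone does not tie it to Hnf4a. Replicate 2 of H3K4me3 had a small peak over it, with a fold enrichment of 2.22, that replicate 1 lacked. The other MafA region lay 13.9 kb beyond the upper end of Hnf4a, from 163586158 to 163587153, with 3.37 and 3.88 in replicates 1 and 2. Inside the gene, MafA peaks were called in replicate 2 alone, at 163531886 to 163532470 and 163534791 to 163535601, with 3.48 and 3.86. They lie between the upstream and the downstream start, and also in Hnf4aos.

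Hnf4g (chromosome 3, 3508030 to 3659800), the second HNF4 receptor gene, had an H3K4me3 region at its lower end, from 3507572 to 3508978, with fold enrichment of 12.8 and 15.0. It rested on 152 and 70 fragments, fewer than at Hnf4a in each library. MafA was called there in replicate 2 alone, with a fold enrichment of 5.53 from 37 fragments, and the window of 252 kb held no other peak.

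Onecut1 (chromosome 9, 74861921 to 74889648) had H3K4me3 from 74861478 to 74862469 at its start, with 4.70 and 5.14 in replicates 1 and 2. These summits held 38 and 17 fragments, the fewest of the marked gene ends in this group. The H3K4me3 region overlapped the long non-coding gene Gm33562 as well. A MafA region lay 15.5 kb and 15.6 kb beyond the upper end, from 74904783 to 74905856, with 7.41 from 22 fragments in replicate 1 and 7.90 from 41 in replicate 2 (7.65 ± 0.350, SD, n = 2). Its replicates were the closest among the strongest regions of the 4 genes that had one, and it stood at percentile 72.6. MafA replicate 1 alone had a peak just before the start, from 74861580 to 74861884. The summit of that peak stood at base -274 from the start, and the peak overlapped Gm33562. It ended short of the start itself. Its fold enrichment was 4.87, from 14 fragments, and it covered 214 bases of the Onecut1 window printed above.

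Gata4 (chromosome 14, 63198914 to 63271712) had no H3K4me3 region within 1 kb of either annotated end. The mark lay inside the annotated gene span instead. From 63244197 to 63245742 fold enrichment was 13.9 and 12.0, with the summit of both replicates at the same base, 26.6 kb from the upper end and 46.2 kb from the lower. A weaker region from 63255626 to 63256081 had 4.68 and 4.71. The gene table gives neither strand nor inner transcript starts. Whether either region lies at a transcript start, the main one included, cannot be read from it. The lack of a region at the outer ends therefore does not show that the Gata4 promoter was unmarked. MafA replicate 2 alone had a peak over the stronger inner region, at 2.68 from 49 fragments.

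Of 3 MafA regions around Gata4, the strongest lay 42.3 kb and 42.4 kb beyond the upper end, from 63313381 to 63314299, in the non-coding gene Gm4151. The replicates parted there, with 5.25 from 19 fragments in replicate 1 and 11.8 from 68 in replicate 2. The nearest region, from 63195527 to 63195881, lay 3.16 kb and 3.31 kb below the lower end, next to Neil2, with 3.57 and 3.11. The third lay inside Fdft1, over an H3K4me3 region of low fold enrichment (4.48 and 4.11), and had MafA values of 5.24 and 4.39.

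Gata6 (chromosome 18, 11052510 to 11085636) showed H3K4me3 without MafA. The region at its lower end ran from 11052451 to 11054276, over 1826 bp, with fold enrichment of 5.51 and 5.48 from 113 and 54 fragments. It was close to the median width of all H3K4me3 regions (1837 bp) and low in mean fold enrichment, at percentile 13.8, and overlapped the antisense gene Gata6os as well. No MafA peak was called in either replicate in its window.

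Sox9 and Ptf1a, the duct and acinar factors, were the members without H3K4me3. At Sox9 (chromosome 11, 112782210 to 112787757) none of the 4 lists had a peak in the gene or within 50 kb, which was so for 17.2% of protein-coding genes. At Ptf1a (chromosome 2, 19445663 to 19447501) the only peak was from MafA replicate 2, 30.6 kb below the gene in the long non-coding gene Gm33940, with 4.06 from 58 fragments. A list holds only what passed the calling threshold, so weaker signal at these genes would not appear.

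Hes1 (chromosome 16, 30065357 to 30067796) had the most MafA regions of the group and the widest H3K4me3 region. H3K4me3 covered most of the gene, from 30062888 to 30067559, over 4672 bp, with 17.4 and 15.2 in replicates 1 and 2. A separate region from 30069485 to 30071194 had 10.2 and 13.0. The 6 MafA regions lay 2.17 to 40.7 kb from the gene, 3 on either side. A number of 6 or more was reached by 8.09% of protein-coding genes.

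The strongest of them, from 30024496 to 30025413, lay 40.7 kb and 40.3 kb below the gene in the long non-coding gene 9030404E10Rik. Fold enrichment was 5.36 from 42 fragments in replicate 1 and 8.49 from 102 in replicate 2. The nearest, from 30069909 to 30070883, lay over the separate H3K4me3 region, with 2.77 and 3.04 and summits 813 bp apart. It had the lowest fold enrichment of all 12 regions, although its summits held 66 and 76 fragments. The modelled background there, in units scaled by library, was 23.2 and 18.0 against 7.02 and 8.09 at the strongest. Reaching into the gene itself, MafA was called in replicate 2 alone, in a peak of 2650 bp. Its value of 2.56 was taken at a summit 0.812 kb below the gene. Beside it, from 30062525 to 30064105, replicate 2 alone had another peak, at 2.88.

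**Figure D2:**
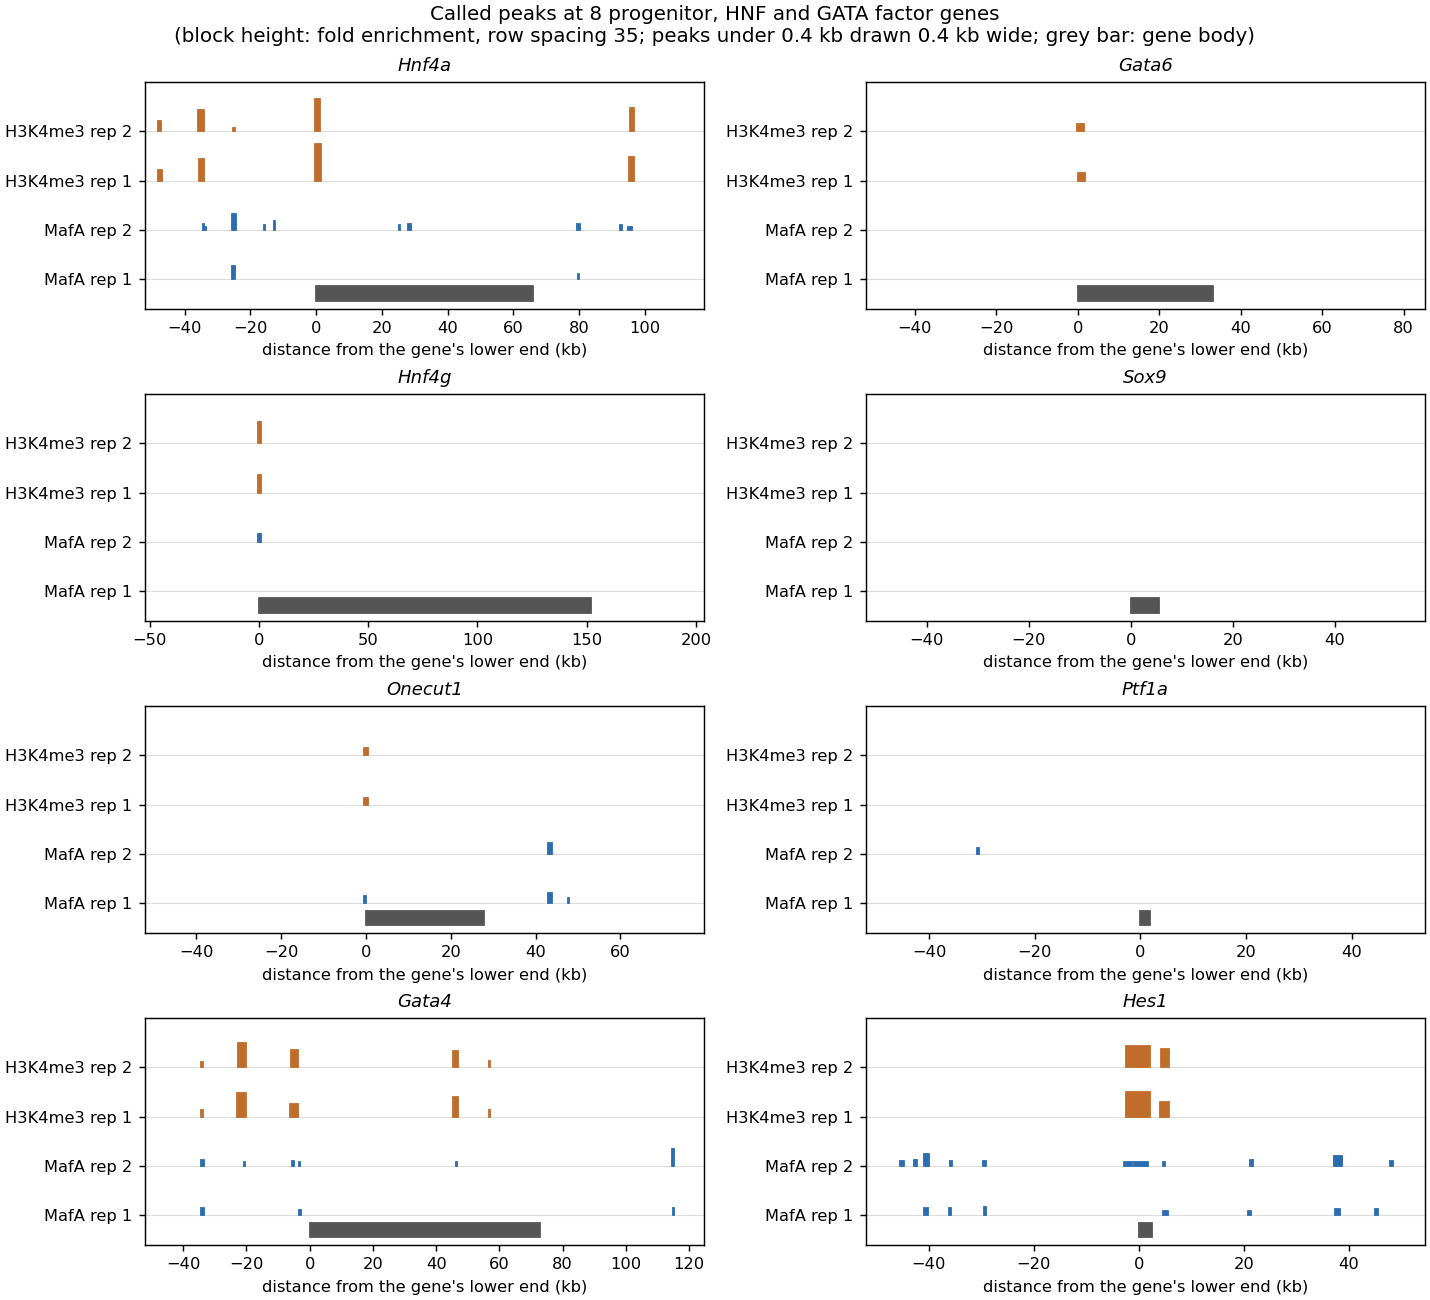
Called peaks in each library (rows) along the windows of the 8 genes, as distance in kb from the gene's lower end (x axis). Block height is fold enrichment, and the grey bar is the gene body. Sox9 has no block in any row, Gata6 has H3K4me3 alone, and no gene body holds MafA blocks in both replicates.

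The order of H3K4me3 over the gene bodies was Hnf4a (mean fold enrichment 24.6), Hes1 (16.3), Hnf4g (13.9), the inner Gata4 region (12.9), Gata6 (5.50), Onecut1 (4.92) and the second inner Gata4 region (4.70). The replicate ranges of Hnf4g and of the stronger Gata4 region overlapped, as did those of Onecut1 and of the weaker Gata4 region, so their order is not resolved. The median over all H3K4me3 regions was 14.9.

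**Figure D3:**
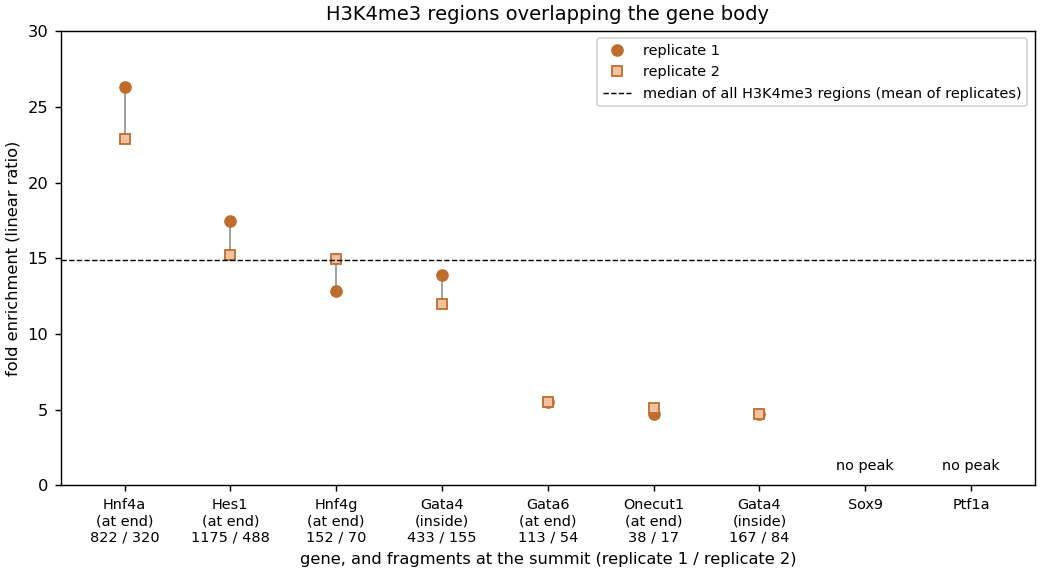
Fold enrichment (y axis, linear ratio) of the 7 H3K4me3 regions that overlap a member's gene body, with 1 point per replicate and the fragments at each summit under the gene name. Hnf4a and Hes1 sit above the median of all H3K4me3 regions in both replicates, Hnf4g has a replicate on either side of it, and Gata6, Onecut1 and the weaker Gata4 region sit between 4.68 and 5.51.

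Over the 8 genes together, 4 (Hnf4a, Onecut1, Gata4 and Hes1) had a MafA region found in both replicates, against 66.1% of protein-coding genes. With replicate 2 alone the number was 6 genes, against 76.6%, and with replicate 1 alone it was 4, against 70.8%. Within 10 kb it was 2 genes (Gata4 and Hes1), against 44% of genes. The count of genes was thus no higher than the background at either distance. The members were few and were not tested as a list.

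None of the 12 MafA regions overlapped the body of a member gene, whereas 58.9% of all MafA regions overlapped the body of some protein-coding gene. The member bodies make up part of each window only, so the shares are not like for like. None of the 12 was among the top 10% of MafA regions by mean fold enrichment. Their means ran from 2.91 to 9.94 with a median of 4.82, against a median of 5.75 over all MafA regions. Summits of the replicates lay 18 to 813 bp apart, with a median of 83.5 bp.

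**Figure D4:**
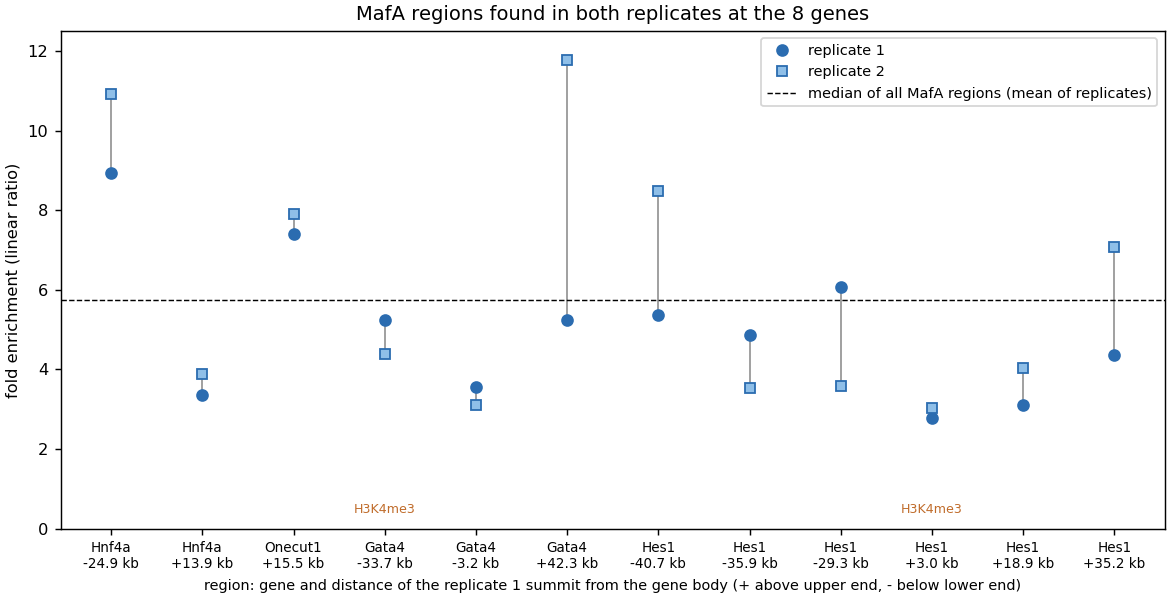
Fold enrichment (y axis, linear ratio) in replicate 1 (circles) and replicate 2 (squares) of the 12 MafA regions, labelled by gene and distance from the gene body. The strongest regions at Hnf4a and Onecut1 lie above the median of all MafA regions in both replicates, and the replicates of the farthest Gata4 region and of 3 Hes1 regions lie on either side of it.

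In their windows 6 of the 8 genes had an H3K4me3 region, against 75.4% of protein-coding genes. At 5 of the 8 genes H3K4me3 was found at most 1 kb from a gene end (Hnf4a, Hnf4g, Onecut1, Gata6 and Hes1), against 55.8% of protein-coding genes. The inner Gata4 regions are not in this count, and whether they lie at a start could not be read. MafA regions lay at most 1 kb from a gene end at 0 of the 8 genes, against 20.4% of protein-coding genes. Single-replicate MafA peaks were called at the ends of Hnf4g, Onecut1 and Hes1. Hnf4g and Gata6 (2 of 8) had H3K4me3 at an end and no MafA region in the window, against 8.88% of protein-coding genes. Sox9 and Ptf1a (2 of 8) had neither, against 25%. H3K4me3 regions overlapped 2 of the 12 (in Fdft1 near Gata4 and beside Hes1), against 23.5% of all MafA regions. These numbers leaned on the replicate used. Replicate 2 had 30 MafA peaks in the windows and replicate 1 had 15, and 12 of each were matched, where 60.8% of all replicate 2 peaks and 81.2% of all replicate 1 peaks were. Taken alone, replicate 2 gave 10 MafA peaks over H3K4me3 regions and replicate 1 gave 3. The share over all peaks of each library was not computed to set beside these counts. Of the 18 peaks of replicate 2 without a partner, 8 lay over H3K4me3 regions, among them those at Hnf4g, Hes1, the inner Gata4 region and the neighbours Fitm2, Ttpal, Fdft1 and Neil2. Over the genome 23.4% of such peaks did. Replicate 2 was the library with more peaks, 42747 against 33013. The part of this difference in the unmatched peaks was not tested.

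**Figure D5:**
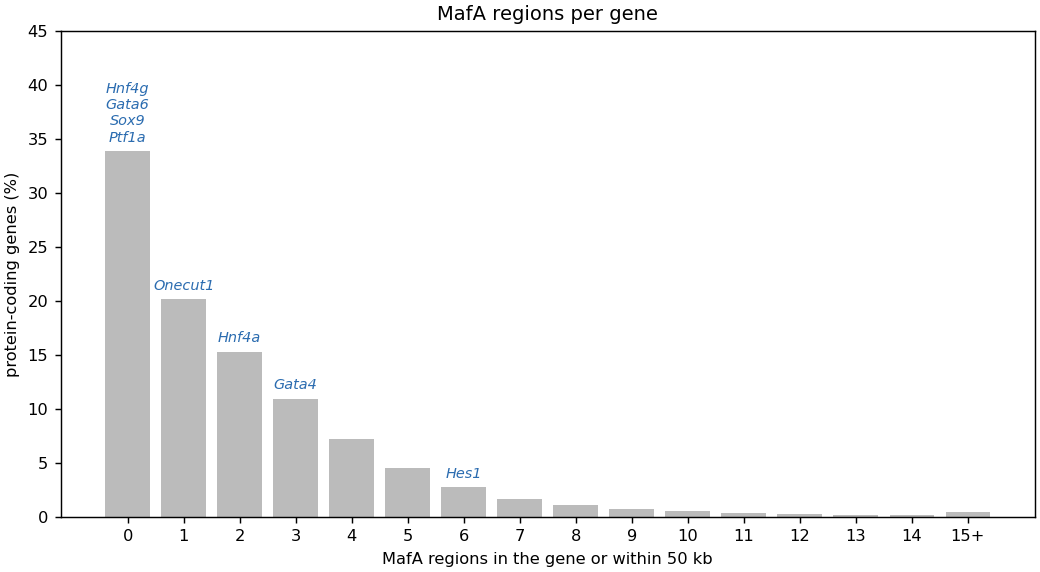
Share of protein-coding genes (y axis, %) by the number of MafA regions in the gene or within 50 kb (x axis), with the 8 genes written above their bar. Members stand from 0 regions (4 genes) to 6 regions (Hes1).

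MafA peaks in these windows were narrower than H3K4me3 peaks, and a smaller share of their summits lay at gene ends, in both replicates. The median MafA peak spanned 566 ± 18.7 bp and the median H3K4me3 peak 1574 ± 48.4 bp (mean ± SD, n = 2 libraries per target), a difference of -1008.5 bp. Over all peaks the median widths were 556 and 651 bp for MafA and 1716 and 1674 bp for H3K4me3, in replicates 1 and 2. The narrower MafA peaks are thus not particular to these genes. The summit lay within 1 kb of an end of a protein-coding gene in 1 of 15 and 7 of 30 MafA peaks, and in 7 of 14 and 8 of 15 H3K4me3 peaks, of replicates 1 and 2. The library shares averaged 15.0 ± 11.8% and 51.7 ± 2.36%, a difference of -36.7 percentage points. The same share over all peaks was not computed, so this is not shown to be particular to these genes. For both differences a two-sided exact permutation test over libraries returned p = 0.333, the smallest that 2 libraries against 2 allow. Both differences were larger than the spread between replicates.

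A wider list of 36 genes of pancreas progenitors, HNF, GATA and NOTCH factors put the 8 in context. Of these, 29 had a MafA region in the window, against 66.1% of protein-coding genes, and 27 an H3K4me3 region at an end, against 55.8%. The 4 with the highest fold enrichment were Hes6 (38.5 and 37.5 in replicates 1 and 2), Meis2 (24.5 and 27.5), Mnx1 (19.7 and 24.7) and Onecut2 (21.6 and 22.1). Hes6 codes for a HES family protein that counteracts HES1, Meis2 and Mnx1 for homeodomain factors, and Onecut2 for a paralog of ONECUT1. The region counted for Hes6 lay 40.5 kb from the gene, from 91454553 to 91460115 on chromosome 1. Other genes at or near it were not looked up, so proximity alone does not tie it to Hes6. The regions of Meis2 and Onecut2 overlapped the gene.

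The list holds other ONECUT and GATA genes. Onecut2 had H3K4me3 at an end with 27.8 and 23.0 in replicates 1 and 2, where Onecut1 had 4.70 and 5.14 and Onecut3 had 4.49 and 4.96. Gata5 had no region of either kind, as Sox9 did. The 7 genes of the wider list without a MafA region were Foxa1, Neurog3, Gata5, Sox17, Sox11, Nr5a2 and Tcf7l2, of which Sox11 alone had H3K4me3 at an end. Neurog3 drives endocrine fate in progenitors, and Sox17 and Nr5a2 act in endoderm and acinar cells.

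The lists held 16020 and 16904 H3K4me3 peaks and 33013 and 42747 MafA peaks in replicates 1 and 2, with medians of 759, 262, 25 and 46 fragments per summit. Of 10 beta cell markers, 7 carried H3K4me3 at an end, with Ins1, G6pc2 and Ucn3 unmarked, against 55.8% of protein-coding genes. The mark was at 4 of 5 alpha cell, 0 of 2 delta cell, 1 of 6 acinar, 1 of 4 duct, 0 of 3 fibroblast, 0 of 2 endothelial and 1 of 2 immune markers. A MafA region lay in the window of 10 of 10 beta cell markers, against 66.1% of protein-coding genes, and also of 4 of 5 alpha cell, 2 of 2 delta cell, 5 of 6 acinar, 3 of 4 duct, 3 of 3 fibroblast, 1 of 2 endothelial and 2 of 2 immune markers. H3K4me3 at a gene end is not a measure of expression.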

How the data were processed

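CUT&RUN libraries were sequenced as 150 bp pairs, per the labels. Peaks were called by the authors with MACS2 on GRCm38 (mm10), per the submitters' processing notes, 1 list per library. The version, aligner and control are not given in the sources used here. Fold enrichment as deposited is a linear ratio taken at the summit, and the deposited −log10 p-value and −log10 q-value columns hold its significance, with lowest −log10 q values near 2.00. The deposited score (10 times −log10 q) was not used. The deposited summit offset gave positions.

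A region was the union of peaks of both replicates sharing at least 1 bp, valued by the strongest peak of each. Positions are 1-based. Gene ends came from a RefSeq gene table (GRCm38.p6) that gives no strand, so either end stood for the start. Whole fragments were solved from fold enrichment and p-value (pseudocount 1, relative tolerance 0.0001), solving at least 99.84% of peaks per list. A scaling factor was found for each list. In replicates 1 and 2 it was 0.415 and 0.997 for H3K4me3, and 1.0 and 0.746 for MafA. Fragments are given before scaling and backgrounds in scaled units, so their plain ratio is not the fold enrichment. Fragments of different libraries are not on 1 scale. The routine was tested on simulated data. Python 3.11.15, numpy 2.4.6, pandas 2.3.3 and scipy 1.17.1 were used.

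The members, lists and tests were chosen with earlier results of these data known, and the letters searched in start windows after those were read. Of each member, the strongest and the nearest MafA region and the H3K4me3 region at an end are named, then regions in the top 10%. Of the wider list, genes without a MafA region and the 4 strongest are named. Other ONECUT and GATA genes of the wider list were added after their values were seen. Values of some genes of that list are not reported here. MAF sites at summits were not searched, since genome sequence was not used here.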

Additional observations from a re-analysis of the deposited data

How the results depend on the processing

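With lists limited to a −log10 q of at least 5 there were 9 MafA regions and with 50% reciprocal overlap 9, in place of 12. Among the 16020 strongest peaks of every library there were 4, 1 at each of Hnf4a, Onecut1, Gata4 and Hes1. These 4 genes had a MafA region in each setting run, except that within 10 kb only Gata4 and Hes1 (2 genes) did. The number of MafA regions was 2 within 10 kb, 6 within 25 kb and 20 within 100 kb, and that of H3K4me3 regions 9 within 10 kb and 23 within 100 kb, in place of 14, as the windows held less or more sequence. MafA regions over H3K4me3 numbered 0 among the strongest peaks, 1 with 50% reciprocal overlap, 1 within 10 kb, 1 within 25 kb and 7 within 100 kb, in place of 2. Leaving out each MafA library in turn gave 15 to 30 MafA regions, and leaving out an H3K4me3 library does not touch their number of 12. Leaving out each of the 4 libraries gave 2 to 10 over H3K4me3, and 4 to 6 genes with a MafA region, the highest without MafA replicate 1. The 5 genes with H3K4me3 at an end were 5 in every setting run. Within 100 kb the strongest MafA region at Gata4 had a mean fold enrichment of 17.1 in place of 8.52, since a region beyond the 50 kb window entered, and with 50% reciprocal overlap it had 4.82.

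The difference in width ran from -1184.5 bp (10 kb either side) to -716.75 bp (strongest peaks) and that in the share at gene ends from -53.6 to -27.8 percentage points. A fit with a replicate block left both at -1008.5 bp and -36.7 points, each at p = 0.5 by exact permutation, the smallest possible there. Nothing in the labels pairs libraries of equal number. No p could pass 0.05 in any setting, so these say nothing about stability. The planned search for MAF sites at MafA summits and its alternatives were not run, since genome sequence was not used here. Summits of the 12 MafA regions held 13 to 121 fragments in replicate 1 and 20 to 233 in replicate 2, which limits what can be said of peaks in 1 replicate alone.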
